A study of Homo sapiens with 6 samples.

Results

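Collagen genes were compared between 3 libraries of HCCLM3 cells transfected with a LINC00862 vector and 3 libraries of HCCLM3 cells transfected with the empty vector, the group called Empty, which the labels write as NC. HCCLM3 is a cell line of human hepatocellular carcinoma, and LINC00862 is a long non-coding RNA that was supplied from the pcDNA3.1 plasmid. The time between transfection and RNA extraction, and whether the libraries of a group came from separate cultures, are not given in the sources used here, so that the p-values measure the spread between these libraries, which may be technical. A gene entered the set when its symbol had the form of a collagen chain (COL, a type number, A, a chain number) and its row held a protein-coding transcript, which gave 42 of the 35856 genes listed. The COL9A1 and COL6A5 genes were not analysed here.

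Collagens are secreted proteins in which 3 chains wind around each other, and the chains of 1 type can come from 1 gene or from several. Fibrillar collagens form the cables of connective tissue, FACIT collagens sit on the surface of those fibrils, network collagens build basement membranes or lattices, and transmembrane and multiplexin collagens stay at cell surfaces or in basement membranes. In the liver, collagen of the fibrotic matrix is known to be made largely by stellate cells and myofibroblasts, whereas hepatocytes are a known source of type XVIII collagen. Before a chain can serve, it is hydroxylated, folded and exported, its ends are removed by proteases, and the fibril is then cross-linked outside the cell.

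The total counts lay between 58241123 and 68229070 in the 6 libraries. LINC00862 had 11, 21 and 6 counts in the Empty libraries and 145, 121 and 76 counts in the LINC00862 libraries, so that the groups did not overlap (log2 fold change 3.22, standard error 0.53, adjusted p = 0.000583 in the quasi-likelihood test of edgeR, adjusted by Benjamini-Hochberg over all tested genes, called the edgeR adjusted p from here on). The libraries of the groups stood far apart: the Spearman correlation of FPKM across genes, which are not independent replicates, was 0.896 to 0.909 within a group and 0.754 to 0.767 between the groups. Accordingly, 13321 of 20741 tested genes (64.2%) passed the threshold of 0.05, with 34.4% of the tested genes higher and 29.8% lower in LINC00862. The labels call the cells of both groups HCCLM3, but markers that define cell types also lay far apart, as given after the collagen values, and whether both groups are the same cells was not tested. All differences below are therefore differences between the libraries so labelled.

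The collagen genes divided between rises and falls, and most of the falls were in genes with more RNA. Of the 42 collagen genes, 36 passed the filter on low counts and were tested, of which 13 rose, 14 fell and 9 did not pass the threshold, so that 75.0% were called against 64.2% of all tested genes. The median log2 fold change was -0.30 over the 36 collagen genes and 0.11 over all tested genes. Of the 14 falls, 10 were in genes with a mean of at least 1 FPKM (fragments scaled by transcript length and by library size, a level that can be compared between genes) in at least 1 group. Among the 13 rises, 10 were in genes whose mean stayed below 1 FPKM in both groups. FPKM did not overlap between the groups in 28 of the 36 tested collagen genes (77.8%), against 71.1% of all tested genes. Among the tested genes, 7 had fewer than 10 counts in every library of 1 group only and therefore passed the filter through the other group. All 7 are among the called genes, and the direction of their calls was fixed by the filter. The 75.0% includes them.

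**Figure D1:**
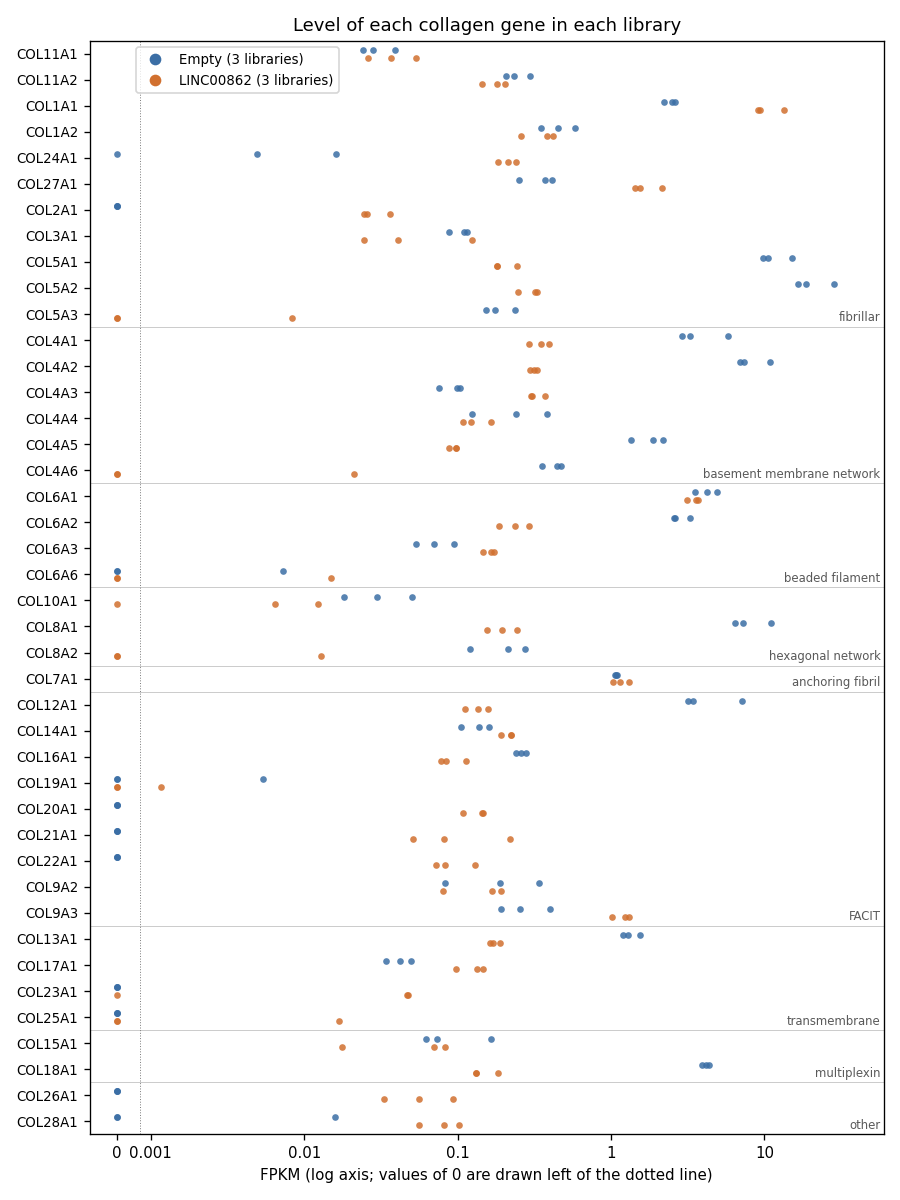
Level of each of the 42 collagen genes in each library as FPKM on a log axis, grouped by structural class, with values of 0 drawn left of the dotted line. The Empty points of COL5A1, COL5A2, COL4A2 and COL8A1 lie above 6 FPKM and their LINC00862 points below 0.4 FPKM, while COL1A1 shifts from 2.43 to 10.6 FPKM on average.

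Collagen transcripts as a whole took a smaller share of the LINC00862 libraries. The summed collagen counts were 0.116%, 0.0799% and 0.0774% of all counts in Empty and 0.0216%, 0.0220% and 0.0263% in LINC00862, so that all 3 Empty libraries were above all 3 LINC00862 libraries and the mean share was 3.91 times as high in Empty. The summed level was 79.5 ± 18.2 FPKM for Empty and 23.0 ± 1.99 FPKM for LINC00862 (SD, n = 3 each). RNA was measured in bulk, so that fewer cells of a type and less RNA per cell cannot be told apart in these values.

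The make-up of the collagen transcripts changed as well. In Empty, COL5A2 was the most abundant collagen transcript in every library, with 24.4% to 28.5% of the summed collagen FPKM, and it was followed on average by COL5A1, COL4A2, COL8A1 and COL12A1. In LINC00862, COL1A1 came first in every library with 41.8% to 53.3%, and COL6A1, COL27A1, COL9A3 and COL7A1 followed on average. Basement membrane network collagens made up 18.6% ± 0.97 (SD, n = 3) of the summed collagen FPKM in Empty and 5.35% ± 0.98 (SD, n = 3) in LINC00862. Hexagonal network collagens went from 10.6% ± 0.66 to 0.921% ± 0.25 (SD, n = 3 each), and multiplexins from 5.55% ± 1.29 to 0.914% ± 0.29 (SD, n = 3 each). Since shares add up to a whole, a larger share did not need a higher level: beaded filament collagens held 9.17% ± 1.85 in Empty and 16.9% ± 2.71 in LINC00862 (SD, n = 3 each), while their summed level was 7.11 ± 0.84 FPKM in Empty and 3.85 ± 0.32 FPKM in LINC00862 (SD, n = 3 each).

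**Figure D2:**
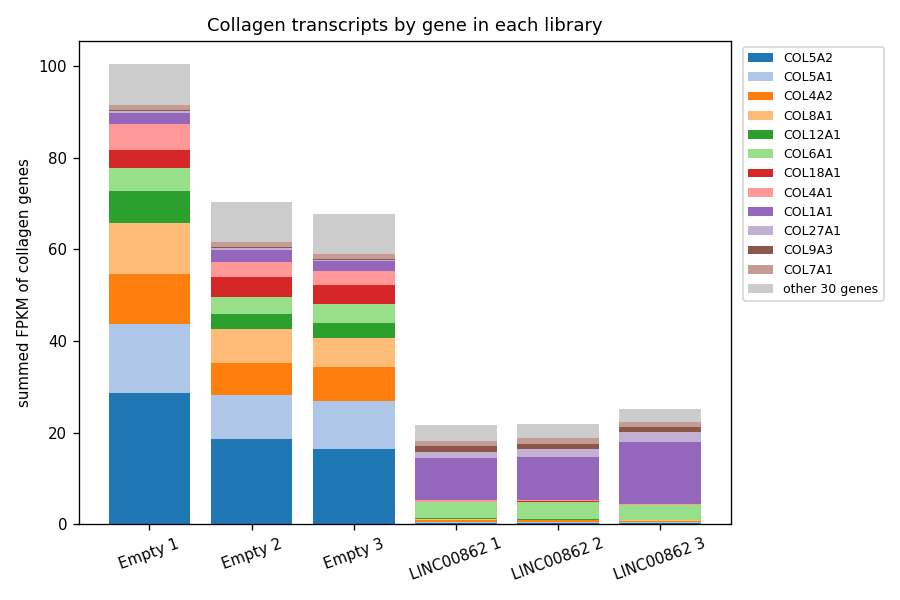
Summed FPKM of the 42 collagen genes in each of the 6 libraries, as stacked bars with 12 genes in colours and the other 30 genes in grey. The Empty bars reach 67.7 to 100.5 FPKM and consist largely of COL5A2, COL5A1, COL4A2 and COL8A1, and the LINC00862 bars reach 21.7 to 25.3 FPKM with COL1A1 as the largest block.

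Among the fibrillar collagens, the type V chains fell and COL1A1 rose. All 11 fibrillar genes were tested, of which 4 rose, 3 fell and 4 did not pass the threshold. Type V collagen is a minor component of fibrils that is known to start their assembly and to limit their diameter. COL5A2 (ENSG00000204262, hg38 chr2:189031898-189225312, minus strand) measured 28.6, 18.6 and 16.5 FPKM in the Empty libraries and 0.321, 0.328 and 0.246 FPKM in the LINC00862 libraries. The lowest Empty value was far above the highest LINC00862 value, and the log2 fold change was -5.96 (standard error 0.23, edgeR adjusted p = 1.22e-07), the largest fall among fibrillar genes. COL5A1 (ENSG00000130635, hg38 chr9:134641803-134844843, plus strand) measured 15.1, 9.76 and 10.5 FPKM in Empty and 0.245, 0.181 and 0.180 FPKM in LINC00862, with a log2 fold change of -5.67 (standard error 0.22, edgeR adjusted p = 1.29e-07). The third chain, COL5A3, had 69, 78 and 107 counts in Empty and 0, 0 and 4 counts in LINC00862. Its groups did not overlap either, and its log2 fold change of -5.75 (standard error 0.94, edgeR adjusted p = 0.000605) went to -9.41 without LINC00862 replicate 3, the library that held its 4 counts.

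COL1A1 encodes the main chain of type I collagen, the principal fibre of bone, skin and scar, and lies on hg38 chr17:50184101-50201632 (minus strand, ENSG00000108821). It measured 2.48, 2.59 and 2.21 FPKM in Empty and 9.08, 9.37 and 13.5 FPKM in LINC00862. The LINC00862 libraries were all higher, with replicate 3 the highest, and the log2 fold change was 2.32 (standard error 0.22, edgeR adjusted p = 1.90e-05). COL1A2, whose product joins that of COL1A1 in type I collagen, did not follow: it measured 0.347, 0.582 and 0.450 FPKM in Empty and 0.420, 0.260 and 0.380 FPKM in LINC00862, with overlapping groups and a log2 fold change of -0.21 (standard error 0.31, edgeR adjusted p = 0.584).

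COL27A1, a fibrillar chain known from cartilage, measured 0.373, 0.413 and 0.250 FPKM in Empty and 1.44, 1.55 and 2.14 FPKM in LINC00862. Every LINC00862 library was above every Empty library (log2 fold change 2.49, standard error 0.26, edgeR adjusted p = 4.20e-05). COL2A1, the main collagen of cartilage, was not detected in the Empty libraries, at 0 counts in each, and had 19, 11 and 12 counts in the LINC00862 libraries. Against a floor of 3 counts per library, which covers counting error only, COL2A1 was at least 4.92-fold higher (edgeR adjusted p = 0.00157), at a level of 0.0289 ± 0.00642 FPKM (SD, n = 3). COL24A1 had 11, 0 and 4 counts in Empty and 176, 116 and 138 counts in LINC00862 (log2 fold change 4.93, standard error 0.76, edgeR adjusted p = 0.000423), and its log2 fold change was 6.11 without Empty replicate 1. The other fibrillar genes, COL3A1, COL11A1 and COL11A2, stayed below 0.3 FPKM in every library and had log2 fold changes between -0.57 and 0.49 that did not pass the threshold. For COL3A1, the second collagen of scar tissue, the value moved to -1.49 without LINC00862 replicate 1.

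The basement membrane collagens of type IV come from 6 genes that lie in pairs on chromosomes 13, 2 and X, each pair head to head with its transcription starts facing apart. The products of COL4A1 and COL4A2 form the network found in nearly all basement membranes, those of COL4A3, COL4A4 and COL4A5 the network of the kidney filter and the lung, and those of COL4A5 and COL4A6 a network of smooth muscle and skin. Of the 6 genes, 4 fell, 1 rose and 1 did not pass the threshold. COL4A2 (ENSG00000134871, hg38 chr13:110305812-110513209, plus strand) measured 10.9, 6.94 and 7.30 FPKM in Empty and 0.315, 0.328 and 0.297 FPKM in LINC00862 (log2 fold change -4.54, standard error 0.19, edgeR adjusted p = 1.55e-07). COL4A1 (ENSG00000187498, hg38 chr13:110148963-110307157, minus strand) measured 5.79, 3.29 and 2.88 FPKM in Empty and 0.351, 0.392 and 0.294 FPKM in LINC00862 (log2 fold change -3.32, standard error 0.24, edgeR adjusted p = 4.21e-06). The values of neither gene overlapped between the groups, and Empty replicate 1 was the highest library for both.

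The pair on chromosome X fell as well. COL4A5 (ENSG00000188153, hg38 chrX:108439838-108697545, plus strand) measured 2.20, 1.86 and 1.36 FPKM in Empty and 0.0970, 0.0976 and 0.0881 FPKM in LINC00862 (log2 fold change -4.05, standard error 0.23, edgeR adjusted p = 8.07e-07). COL4A6 had 294, 272 and 221 counts in Empty and 0, 14 and 0 counts in LINC00862. All LINC00862 libraries were lower, and the log2 fold change of -5.67 (standard error 0.97, edgeR adjusted p = 0.000783) went to -11.0 without LINC00862 replicate 2, the library that held the 14 counts.

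On chromosome 2 the neighbours did not move together. COL4A3 (ENSG00000169031, hg38 chr2:227164624-227314792, plus strand) measured 0.0996, 0.103 and 0.0754 FPKM in Empty and 0.306, 0.369 and 0.300 FPKM in LINC00862, without overlap (log2 fold change 1.98, standard error 0.30, edgeR adjusted p = 0.000357). COL4A4 measured 0.381, 0.239 and 0.123 FPKM in Empty and 0.122, 0.165 and 0.109 FPKM in LINC00862. The groups of COL4A4 overlapped, and its log2 fold change of -0.71 (standard error 0.40) did not pass the threshold with all libraries (edgeR adjusted p = 0.152) but was -1.01 without Empty replicate 3 (edgeR adjusted p = 0.0281).

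The sequences before the starts of these pairs are printed because 2 head-to-head pairs were called in the same direction on both sides and the third was not, and they are taken from RefSeq on GRCh38.p14. The first runs the whole 126 bases between the RefSeq starts of COL4A1 and COL4A2, in the direction of COL4A2, and the others are the 250 bases before the start of COL4A5 and of COL4A3, 5′ to 3′ on the plus strand. The RefSeq start of COL4A2 lies 1472 bases downstream of the start of its row in the deposited table. The RefSeq starts of COL4A6 and COL4A5 are 379 bases apart and those of COL4A4 and COL4A3 are 418 bases apart. Capitals mark every match on either strand to CCAAT, the core of a common promoter element, to GGGCGG, known as the GC box, to TATAAA, the core of the TATA box, and to CAGGTG, an E-box, and no matches overlapped.
COL4A1 to COL4A2, chr13:110307158-110307283: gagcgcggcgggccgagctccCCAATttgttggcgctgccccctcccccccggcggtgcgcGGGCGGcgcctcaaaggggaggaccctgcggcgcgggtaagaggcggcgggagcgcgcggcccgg
COL4A5, chrX:108439588-108439837: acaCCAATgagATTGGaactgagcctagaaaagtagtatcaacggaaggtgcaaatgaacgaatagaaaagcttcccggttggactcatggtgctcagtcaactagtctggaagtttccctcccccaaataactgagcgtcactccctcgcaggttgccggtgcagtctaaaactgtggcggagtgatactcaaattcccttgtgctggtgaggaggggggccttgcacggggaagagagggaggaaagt
COL4A3, chr2:227164374-227164623: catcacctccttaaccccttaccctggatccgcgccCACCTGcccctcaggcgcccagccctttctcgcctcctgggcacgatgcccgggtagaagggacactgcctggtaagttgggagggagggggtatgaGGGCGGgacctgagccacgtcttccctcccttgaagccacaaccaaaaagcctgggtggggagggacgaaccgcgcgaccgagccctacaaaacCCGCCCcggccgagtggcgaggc

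The stretch between COL4A1 and COL4A2 held a CCAAT and a GGGCGG, the stretch before COL4A5 held CCAAT on both strands, and the stretch before COL4A3 held GGGCGG on both strands and a CAGGTG on the reverse strand. In RefSeq promoters cut to the last 126 bases before the start, 21.1% held CCAAT and 34.5% held GGGCGG, and in those of 250 bases the shares were 32.0% for CCAAT, 42.5% for GGGCGG, 10.8% for TATAAA and 17.5% for CAGGTG. Of the 42 collagen genes, 31 had an entry in the set of RefSeq promoters used here. The genes without an entry include COL5A2, COL1A1, COL1A2, COL8A1 and COL6A1, so that the counts leave out the most abundant gene of each group. Among the 31 genes, CCAAT was held by 5 of 12 genes that fell, 2 of 7 that rose and 1 of 6 that did not pass the threshold. GGGCGG was held by 9 of 12 that fell, 3 of 7 that rose and 5 of 6 that did not pass the threshold. Windows of head-to-head pairs share bases, so that these counts are not of separate stretches. The CCAAT and GGGCGG between COL4A1 and COL4A2 counted for both genes. Likewise, the CCAAT matches before COL4A5 lie also in the window of COL4A6 and counted for both, all 4 genes being among the falls. The window of COL28A1, among the rises, lies at a RefSeq start 98438 bases from that of its row in the deposited table. These letter matches are a description of the windows and not binding sites.

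The same window is shown for 1 fibrillar gene that fell and 1 that rose on chromosome 9, COL5A1 and COL27A1, chosen after their values were seen. Each is the 250 bases before the RefSeq start on the plus strand, with the same motifs in capitals, and the start matched that of the deposited row in both.
COL5A1, chr9:134641553-134641802: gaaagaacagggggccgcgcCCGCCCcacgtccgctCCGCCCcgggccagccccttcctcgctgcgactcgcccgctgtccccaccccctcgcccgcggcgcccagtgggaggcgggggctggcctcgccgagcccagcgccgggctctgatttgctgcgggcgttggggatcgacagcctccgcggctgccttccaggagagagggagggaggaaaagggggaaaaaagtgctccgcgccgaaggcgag
COL27A1, chr9:114155287-114155536: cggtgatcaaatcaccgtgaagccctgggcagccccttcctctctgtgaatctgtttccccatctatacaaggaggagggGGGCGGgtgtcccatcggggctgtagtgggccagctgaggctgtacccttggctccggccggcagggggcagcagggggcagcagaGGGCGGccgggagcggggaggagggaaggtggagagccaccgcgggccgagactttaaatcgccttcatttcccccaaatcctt
Both windows held GGGCGG at 2 places and none of the other motifs, in COL5A1 on the reverse strand and in COL27A1 on the printed strand.

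Type VI collagen builds beaded filaments around cells from chains of COL6A1, COL6A2 and a larger chain such as that of COL6A3. COL6A1 measured 4.89, 3.52 and 4.24 FPKM in Empty and 3.56, 3.66 and 3.12 FPKM in LINC00862, with overlapping groups and a log2 fold change of -0.11 (standard error 0.15, edgeR adjusted p = 0.529). COL6A2, on the same strand of chromosome 21, measured 2.63, 2.57 and 3.27 FPKM in Empty and 0.290, 0.235 and 0.185 FPKM in LINC00862. All LINC00862 values of COL6A2 were below all Empty values (log2 fold change -3.38, standard error 0.25, edgeR adjusted p = 4.45e-06). COL6A3 rose from a low level, with 0.0950, 0.0533 and 0.0701 FPKM in Empty and 0.172, 0.147 and 0.164 FPKM in LINC00862 (log2 fold change 1.33, standard error 0.30, edgeR adjusted p = 0.00381). COL6A6 had at most 10 counts in any library and was not tested.

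Both tested genes of the hexagonal networks fell. Type VIII collagen is known from vessel walls and from the membrane behind the cornea. COL8A1 (ENSG00000144810, hg38 chr3:99638475-99799217, plus strand) measured 11.1, 7.28 and 6.43 FPKM in Empty and 0.244, 0.195 and 0.154 FPKM in LINC00862 (log2 fold change -5.19, standard error 0.25, edgeR adjusted p = 3.30e-07). COL8A2, its partner chain, had 66, 37 and 86 counts in Empty and 0, 4 and 0 counts in LINC00862. The groups did not overlap, and the log2 fold change of COL8A2, -5.34 (standard error 0.98, edgeR adjusted p = 0.00118), was -8.94 without LINC00862 replicate 2. COL10A1, the collagen of hypertrophic cartilage, had at most 13 counts in any library and was not tested. COL7A1, which forms the fibrils that anchor the epidermis, measured 1.07, 1.09 and 1.07 FPKM in Empty and 1.03, 1.32 and 1.14 FPKM in LINC00862. These groups overlapped (log2 fold change 0.28, standard error 0.17, edgeR adjusted p = 0.187), although with upper quartile scaling, which raised the median of all genes to 0.32, COL7A1 passed the threshold at 0.49 (edgeR adjusted p = 0.0353).

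Among the 8 tested FACIT collagens, 5 genes rose, 2 fell and 1 did not pass the threshold. Of the 5 rises, 3 were in genes at 0 counts in every Empty library, which passed the filter through LINC00862 and could only be called higher. COL12A1, which decorates type I fibrils, carried the largest fall and measured 7.10, 3.44 and 3.16 FPKM in Empty and 0.157, 0.135 and 0.111 FPKM in LINC00862. Empty replicate 1 was the highest library, and no values overlapped (log2 fold change -4.88, standard error 0.32, edgeR adjusted p = 1.99e-06). COL16A1 also fell (log2 fold change -1.29, standard error 0.31, edgeR adjusted p = 0.00505) and stayed between 0.0779 and 0.278 FPKM in the 6 libraries.

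COL9A3, a chain of the type IX collagen that coats cartilage fibrils, measured 0.254, 0.400 and 0.191 FPKM in Empty and 1.3, 1.24 and 1.02 FPKM in LINC00862. The groups did not overlap (log2 fold change 2.22, standard error 0.32, edgeR adjusted p = 0.000289). COL9A2, its partner, measured 0.190, 0.340 and 0.0823 FPKM in Empty and 0.190, 0.0808 and 0.166 FPKM in LINC00862, with overlapping groups and an edgeR adjusted p = 0.685. COL20A1, COL21A1 and COL22A1 were at 0 counts in all 3 Empty libraries. COL20A1 had 125, 80 and 109 counts in LINC00862 and was at least 37.2-fold higher against the floor of 3 counts per library (edgeR adjusted p = 4.97e-05). COL21A1 had 120, 42 and 25 counts and was at least 21.1-fold higher, or 12.5-fold without LINC00862 replicate 1, and COL22A1 had 79, 44 and 39 counts and was at least 18.8-fold higher. The mean levels of these 3 genes in LINC00862 lay between 0.0951 and 0.133 FPKM.

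COL14A1, which like COL12A1 binds to fibrils, measured 0.105, 0.160 and 0.138 FPKM in Empty and 0.223, 0.221 and 0.191 FPKM in LINC00862. The groups did not overlap, but the call was at the edge of the threshold (log2 fold change 0.81, standard error 0.32, edgeR adjusted p = 0.0490). Leaving out any library other than Empty replicate 2 took the adjusted p above the threshold, with log2 fold changes between 0.62 and 0.87 in those fits. COL19A1 had at most 4 counts in any library and was not tested.

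Of the transmembrane collagens, 1 fell and 1 rose. COL13A1, known from the neuromuscular junction and cell adhesion sites, measured 1.20, 1.3 and 1.54 FPKM in Empty and 0.170, 0.189 and 0.161 FPKM in LINC00862, without overlap (log2 fold change -2.77, standard error 0.23, edgeR adjusted p = 8.37e-06). COL17A1, a component of the hemidesmosomes of epithelial cells, measured 0.0498, 0.0340 and 0.0421 FPKM in Empty and 0.146, 0.0977 and 0.134 FPKM in LINC00862. All LINC00862 values of COL17A1 were higher (log2 fold change 1.72, standard error 0.42, edgeR adjusted p = 0.00604). COL23A1 and COL25A1 had 0 counts in Empty and at most 12 counts in a LINC00862 library, and neither was tested.

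COL18A1 is the multiplexin whose terminal fragment is known as endostatin, and it lies on hg38 chr21:45405165-45513720 (plus strand, ENSG00000182871). It measured 3.91, 4.37 and 4.18 FPKM in Empty and 0.133, 0.185 and 0.131 FPKM in LINC00862. The Empty libraries lay close together and all far above the LINC00862 libraries (log2 fold change -4.61, standard error 0.21, edgeR adjusted p = 2.45e-07). COL15A1, the other multiplexin, stayed below 0.2 FPKM in every library, with overlapping groups (edgeR adjusted p = 0.405). Outside these classes, COL28A1 had 0, 0 and 8 counts in Empty and 30, 38 and 46 counts in LINC00862. The groups did not overlap, and the log2 fold change of 3.87 (standard error 1.09, edgeR adjusted p = 0.0121) rested on few counts: it was 8.34 without Empty replicate 3 and lost the call without LINC00862 replicate 3 (3.62, edgeR adjusted p = 0.0541). COL26A1 had 0 counts in Empty and 14, 20 and 7 counts in LINC00862 and did not pass the filter.

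**Figure D3:**
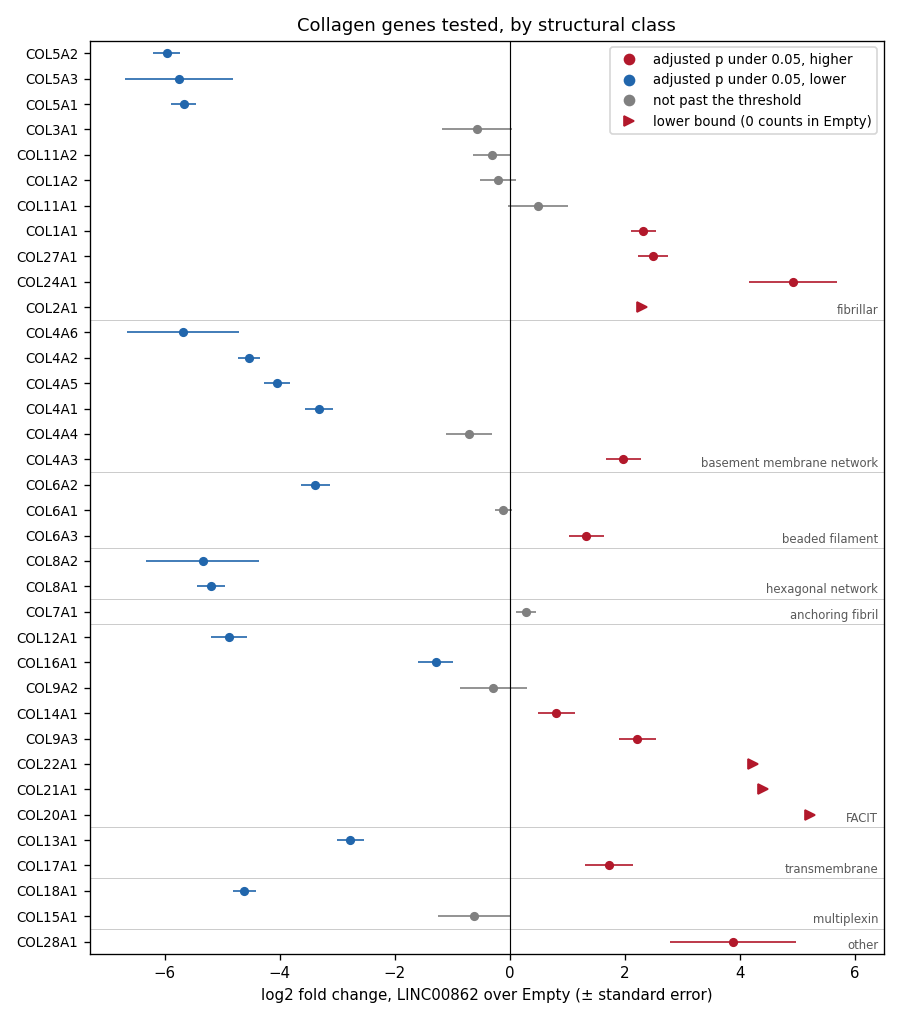
Log2 fold change of LINC00862 over Empty for the 36 tested collagen genes by structural class, with bars of ± 1 standard error from edgeR's quasi-likelihood test, and triangles for lower bounds where all 3 Empty libraries had 0 counts. Falls reach -5.96 in COL5A2, and both directions occur in the fibrillar, basement membrane, beaded filament, FACIT and transmembrane classes.

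The proportions of chains of 1 collagen type were compared as well. The ratio of FPKM between chains of 1 type was taken within each library for the 17 pairs whose genes had at least 10 counts in every library, and in 15 pairs the groups did not overlap, without the share of other gene pairs for comparison. With 3 libraries against 3, the exact two-sided permutation test cannot go below p = 0.1, which is the value of these 15 pairs (0.113 after Benjamini-Hochberg adjustment over the 17 pairs), so that no ratio passed a threshold of 0.05 and this test could not have done so. Many of the pairs share a gene, 10 of them being among 5 genes of type IV.

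The ratio of COL1A1 to COL1A2 was 7.14, 4.46 and 4.91 in Empty and 21.6, 36.1 and 35.5 in LINC00862. In type I collagen of tissues, chains of COL1A1 outnumber those of COL1A2, and COL1A1 had the higher transcript level in all 6 libraries. COL4A1 to COL4A2 went from 0.532, 0.474 and 0.395 to 1.11, 1.20 and 0.988, so that COL4A2 exceeded COL4A1 in every Empty library and the genes were near equal in LINC00862. COL4A3 to COL4A4 went from 0.261, 0.431 and 0.612 to 2.50, 2.25 and 2.76, with COL4A4 higher in every Empty library and COL4A3 higher in every LINC00862 library.

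The ratio of COL4A2 to COL4A3 had the largest shift, from 109, 67.5 and 96.8 in Empty to 1.03, 0.887 and 0.990 in LINC00862. COL6A1 to COL6A2 went from 1.86, 1.37 and 1.29 to 12.3, 15.6 and 16.9. COL9A2 to COL9A3 went the other way, from 0.746, 0.849 and 0.431 to 0.146, 0.0651 and 0.164. Only the pairs COL5A1 with COL5A2 and COL11A1 with COL11A2 overlapped between the groups among the 17 (exact permutation p = 0.2 each). COL5A1 to COL5A2 was 0.528, 0.526 and 0.637 in Empty and 0.765, 0.552 and 0.732 in LINC00862, while both genes fell by more than 5 on the log2 scale.

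**Figure D4:**
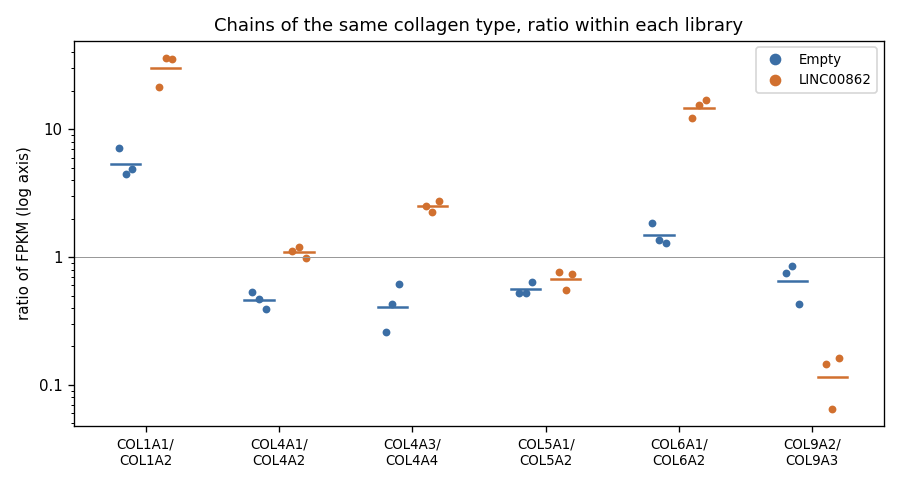
Ratio of FPKM between 2 chains of the same collagen type in each library, on a log axis, for 6 of the 17 pairs, with lines at the geometric mean of each group. The points of COL5A1 over COL5A2 overlap between the groups, and those of the other 5 pairs do not.

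Some collagen rows overlap rows of the opposite strand between their start and end, and whether the transcripts share bases was not tested. Strand was preserved in the libraries, but whether the counting used it is not given in the sources used here. A row on the opposite strand overlapped 12 of the 42 collagen genes. COL9A3 overlaps TCFL5, whose mean count over the 6 libraries was 353% of that of COL9A3. COL18A1 overlaps SLC19A1 (117%), and COL4A3 overlaps the long non-coding RNA MFF-DT (26.6%). These percentages pool the groups, whose counts differ. TCFL5 had 1258, 1117 and 1001 counts in Empty and 716, 624 and 573 counts in LINC00862. SLC19A1 had 1938, 1528 and 2954 counts in Empty and 792, 802 and 466 counts in LINC00862. COL4A1 and COL4A2 overlap each other at their starts by 1346 bases in the deposited coordinates. For the untested COL10A1 and COL19A1, the overlapping NT5DC1 and LMBRD1 had far more counts. Their part in the collagen values was not tested. The antisense RNA of COL5A1, COL5A1-AS1, was a row of its own with 24, 26 and 34 counts in Empty and 0 counts in each LINC00862 library, 0.316% of the mean count of COL5A1 over the 6 libraries.

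Genes that make, bind and degrade collagen were also counted, from lists of known function, of which 68 of the 74 with a row were tested. In these lists 18 genes rose and 38 fell, so that 82.4% were called against 64.2% of all tested genes, and the median log2 fold change was -1.08 against 0.11 over all tested genes. The MEP1A and MMP8 genes were not analysed here. Of the 19 genes of collagen modification and folding, all tested, 5 rose and 11 fell. FKBP10, a prolyl isomerase of the endoplasmic reticulum, measured 18.0, 19.5 and 21.6 FPKM in Empty and 77.4, 75.7 and 66.1 FPKM in LINC00862 (log2 fold change 2.06, edgeR adjusted p = 5.20e-06). P3H2, a prolyl 3-hydroxylase that acts on type IV collagen, measured 10.5, 8.80 and 8.94 FPKM in Empty and 0.269, 0.463 and 0.290 FPKM in LINC00862 (log2 fold change -4.58, edgeR adjusted p = 3.56e-07).

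Of the 6 genes of procollagen export, 4 rose and 1 fell. The largest rise was that of MIA2, which loads large cargo at the endoplasmic reticulum, at 1.07 ± 0.173 FPKM in Empty and 10.6 ± 1.25 FPKM in LINC00862 (SD, n = 3 each, log2 fold change 3.47, edgeR adjusted p = 2.78e-07). SEC23A, a coat protein of transport vesicles, was at 9.71 ± 3.63 FPKM in Empty and 2.99 ± 0.37 FPKM in LINC00862 (SD, n = 3 each, log2 fold change -1.50, edgeR adjusted p = 0.000266). Among the proteins of propeptide cleavage, 6 of 9 were tested, and 3 rose and 3 fell. The protease BMP1, which removes the C-terminal ends of fibrillar procollagens, was at 14.6 ± 0.545 FPKM in Empty and 2.41 ± 0.175 FPKM in LINC00862 (SD, n = 3 each, log2 fold change -2.41, edgeR adjusted p = 2.14e-06). PCOLCE2, an enhancer of that cleavage, rose by 2.97 on the log2 scale (edgeR adjusted p = 8.90e-05).

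All 6 tested genes of cross-linking fell, of 7 listed. LOXL2, an oxidase that cross-links type IV and other collagens, had the largest fall, from 106, 85.5 and 80.1 FPKM in Empty to 0.952, 0.974 and 0.742 FPKM in LINC00862 (log2 fold change -6.48, edgeR adjusted p = 3.05e-08). The summed level of the cross-linking genes was 127 to 174 FPKM in Empty and 9.82 to 10.8 FPKM in LINC00862. Of the 10 tested receptors, 3 rose and 3 fell. The endocytic collagen receptor MRC2 was at 18.1 ± 1.99 FPKM in Empty and 0.194 ± 0.0221 FPKM in LINC00862 (SD, n = 3 each, log2 fold change -6.34, edgeR adjusted p = 5.21e-08). GP6, known as the collagen receptor of platelets, had 0, 0 and 5 counts in Empty and 497, 486 and 513 counts in LINC00862 (log2 fold change 8.22, edgeR adjusted p = 1.36e-05, and 12.03 without Empty replicate 3).

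Of the 7 tested genes of collagenolysis, 1 rose and 4 fell. MMP14, a membrane-bound protease that cleaves fibrillar collagen, was at 28.4 ± 4.60 FPKM in Empty and 0.397 ± 0.0412 FPKM in LINC00862 (SD, n = 3 each, log2 fold change -5.97, edgeR adjusted p = 6.47e-08). CTSK, a lysosomal collagenase, rose by 0.77 on the log2 scale (edgeR adjusted p = 0.0114), and without LINC00862 replicate 1 its edgeR adjusted p was 0.0529. Of the 14 matrix proteins that bind collagen, 2 rose and 10 fell. POSTN had 126, 88 and 152 counts in Empty and 0 counts in each LINC00862 library, and was at least 37.8-fold lower against the floor of 3 counts per library. FMOD, which binds fibrillar collagen, rose by 1.98 on the log2 scale (edgeR adjusted p = 0.000696).

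**Figure D5:**
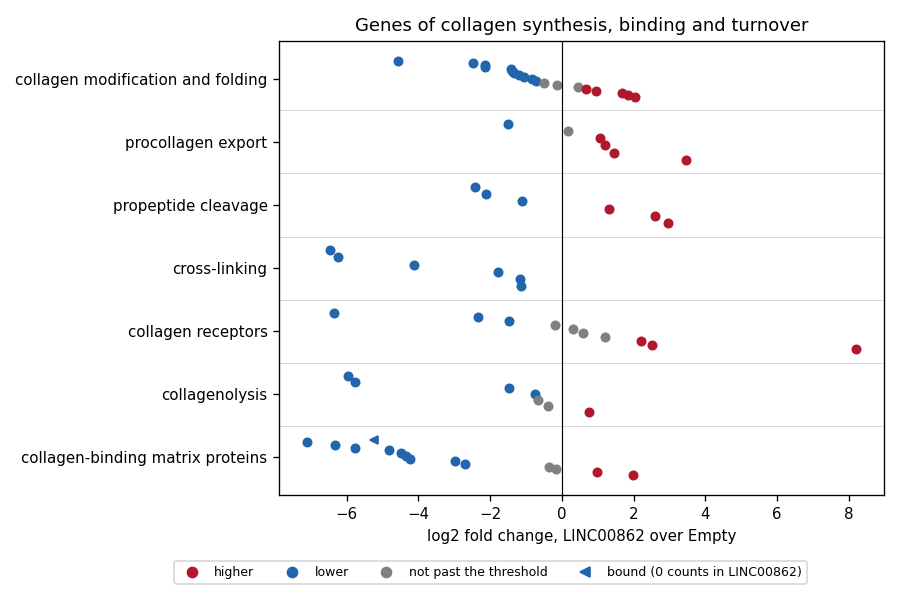
Log2 fold change of LINC00862 over Empty for the 68 tested genes of the 7 lists of collagen synthesis, binding and turnover, 1 point per gene, coloured by the call of edgeR's quasi-likelihood test, with a triangle for a bound. All 6 cross-linking genes lie left of 0, and the export genes lie mostly to the right.

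Many markers of cell types also differed between the groups. Over all tested genes, 34.4% were higher and 29.8% lower in LINC00862. All 7 mesenchymal markers fell, with a summed level of 664 to 718 FPKM in Empty and 4.68 to 5.53 FPKM in LINC00862. VIM, the intermediate filament of mesenchymal cells, measured 481, 571 and 564 FPKM in Empty and 3.66, 3.81 and 3.85 FPKM in LINC00862. Of the 10 epithelial markers, 8 rose and 0 fell (edgeR, with 0 falls also at an unadjusted p under 0.05 and in DESeq2), and EPCAM lay between 0.475 and 0.636 FPKM in Empty and between 148 and 170 FPKM in LINC00862. CDH1, the cadherin of epithelial junctions, lay between 0.235 and 0.280 FPKM in Empty and between 19.9 and 23.7 FPKM in LINC00862. KRT8 and ESRP2 did not pass the threshold. The FPKM of KRT8 was lower in every LINC00862 library (67.5, 69.2 and 50.0) than in every Empty library (72.8, 83.2 and 97.5). Its log2 fold change was -0.28 (edgeR adjusted p = 0.211). Of the 9 tested markers of fibroblasts and stellate cells, 4 fell and 2 rose, with a summed level of 55.1 to 69.2 FPKM in Empty and 2.70 to 3.51 FPKM in LINC00862. PDGFRB fell and lay between 3.18 and 4.41 FPKM in Empty and between 0.0465 and 0.0675 FPKM in LINC00862, LUM rose by 0.98 on the log2 scale, and PDGFRA and DCN stayed below 0.4 FPKM in every library and did not pass the threshold. The largest rise of this list was that of LRAT, an enzyme of vitamin A storage in stellate cells, with 0, 4 and 4 counts in Empty and 173, 81 and 133 counts in LINC00862 (log2 fold change 5.60, edgeR adjusted p = 0.000169). The largest fall was that of THY1, a surface protein of fibroblasts, from 42.2 ± 6.07 FPKM in Empty to 0.101 ± 0.00758 FPKM in LINC00862 (SD, n = 3 each, log2 fold change -8.50, edgeR adjusted p = 2.89e-08).

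The 12 listed hepatocyte and hepatoma markers had a summed level of 3.10 to 3.65 FPKM in Empty and 540 to 620 FPKM in LINC00862. FGB alone had a mean of 550 FPKM in LINC00862. Which of these markers HCCLM3 cells hold is not given in the labels. Of the 10 tested, 8 rose and 2 fell, the falls being AFP and SERPINA1. SERPINA1 was at 1.29 ± 0.216 FPKM in Empty and 0.0950 ± 0.0428 FPKM in LINC00862 (SD, n = 3 each, log2 fold change -3.55, edgeR adjusted p = 3.20e-05). ALB had 0, 0 and 7 counts in Empty and 423, 394 and 282 counts in LINC00862, and AFP had 14, 24 and 30 counts in Empty and 0 counts in each LINC00862 library. Of the 6 endothelial markers, 1 (CDH5) rose and 0 fell, and of the 5 leukocyte markers, 1 (CD68) rose and 0 fell (edgeR, with 0 falls again at an unadjusted p under 0.05 and in DESeq2), while PECAM1 and PTPRC stayed below 0.45 FPKM in every library. The part of these markers' differences in the collagen values was not tested, and with all libraries of a group on 1 side, a difference between the cultures other than the vector cannot be told apart from the effect of LINC00862. This includes a difference in the identity of the cells.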

How the data were processed

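RNA of 3 Empty and 3 LINC00862 libraries was captured with oligo(dT), kept stranded with dUTP and sequenced in pairs. The authors deposited 1 table with the read count per gene, without normalization, and the FPKM, scaled by transcript length and library. The submitters' processing notes name cutadapt 1.9, HISAT2 2.0.4, UMI-tools, StringTie 1.3.4d, DESeq2, edgeR and hg38. Their roles, the use of strand and the collapse of molecular identifiers are not given in the sources used here. The table's columns of the authors' own comparison (fold changes, p and q values) were not used.

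Counts of all genes were fitted with edgeR 4.0.16 in R 4.3.3 (filterByExpr, TMM, quasi-likelihood test, Benjamini-Hochberg adjustment over 20741 genes, threshold 0.05) and only collagen and listed genes are given. The code was tested on simulated data in which few genes changed and the changes were small. That test therefore does not cover changes as many and as large as those here. Replicates differed by more than sampling noise, and no column was left out for want of a sample. Standard errors were derived from the test statistic. A floor of 3 counts per library gave bounds.

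The members and lists were chosen with earlier results of these data known. Values per library are given for collagen genes with a mean of at least 1 FPKM in a group and the largest called rise and fall of each class, and the largest called rise and fall of each pathway list and the defining markers of the marker lists are named. Other collagen genes, partner chains and the markers FGB, SERPINA1, LRAT, THY1, CDH5, CD68, KRT8 and ESRP2 were named after their values were seen. Motifs were searched in RefSeq promoters of GRCh38.p14. Alternatives were DESeq2 1.42.0, upper quartile scaling, library size only, every gene with at least 1 count, limma-trend (limma 3.58.1) on log2(FPKM + 1) and log2(FPKM + 0.1), a replicate block, leaving out each library, testing for changes beyond 2-fold, and limits on FPKM (0.1 in both groups) and fold (2 or 0.5). Python 3.11.15, pandas 2.3.3, scipy 1.17.1 and matplotlib 3.10.9 were used.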

Additional observations from a re-analysis of the deposited data

Results flagged for a closer look

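A pseudogene outside the set of protein-coding collagen genes, COL6A4P1 (ENSG00000230524, hg38 chr3:15151833-15180961, minus strand), had 23, 11 and 12 counts in the LINC00862 libraries (mean 15.3) and 0 counts in each Empty library. It drew attention as a signal above the control libraries in a row outside the collagen set. Against the floor of 3 counts per library it was at least 5.34-fold higher, a description of the difference by which it was chosen. Whether it shares reads with a related type VI gene was not tested.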

How the results depend on the processing

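The count of 27 called collagen genes (13 up, 14 down) was 24 to 28 in every alternative except the limits on FPKM and fold change. The test against a fold change of 2 called 24 of the 36 tested, against 38.6% of all tested genes. That share was 37.5% with every gene with at least 1 count, and 55.7% to 66.5% in the others. With the limits, 12 of the 36 collagen genes were called (3 up, 9 down), against 30.6% of all tested genes. Of the called collagen genes that those limits left out, all but COL14A1 had a mean below 0.1 FPKM in at least 1 group. COL14A1 had a mean above 0.1 FPKM in both groups and missed the limit on fold, at 1.75-fold. For the pathway and marker lists, the part of each limit was not tested. The marker calls were 13 (8 up, 5 down) under those limits against 33 (20 up, 13 down), and LINC00862, at 3.22, did not meet them. The pathway rises went from 18 to 11 in the test against a fold change of 2. Leaving out 1 library gave 26 to 28 called collagen genes (12 to 14 up, 14 to 15 down), 52 to 57 pathway genes and 32 to 34 markers, and a log2 fold change of LINC00862 of 2.91 to 3.83. Of the 27 calls, 24 held in every alternative that asks for no fold, the exceptions being COL14A1, COL28A1 and COL2A1 (0.041 with limma-trend on log2(FPKM + 1), adjusted p = 0.149). The sign of genes that were not called reversed for COL1A2 (0.0026 with upper quartile scaling, -0.40 to 0.013 leaving out 1 library, positive without Empty replicate 2), COL6A1 (0.10 with upper quartile scaling) and COL9A2 (-0.63 to 0.34 leaving out 1 library, positive without Empty replicate 2 and, at 0.011, without LINC00862 replicate 2). As a share of FPKM, collagen took 0.0248% in Empty and 0.00506% in LINC00862, against 0.0910% and 0.0233% of counts. The median of all genes was 0.11 with TMM, 0.16 in DESeq2, 0.32 when scaled by the upper quartile and -0.05 by library size alone, and rises made up 53.6%, 55.1%, 60.4% and 48.5% of all calls. Libraries with the same replicate number did not deviate together (correlations of deviations -0.049, -0.025 and -0.0074), and with the replicate block 26 collagen genes were called (12 up, 14 down), 54 pathway genes and 33 markers. Counts near 0 limit the size of the rises of COL2A1, COL20A1, COL21A1, COL22A1, COL24A1 and COL28A1. They also limit the size of the falls of COL5A3, COL4A6 and COL8A2.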
